A study of Mus musculus with 12 samples.

Results

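The messenger RNAs of 35 genes for chaperones of the endoplasmic reticulum (ER) and for the unfolded protein response were compared in hearts of diabetic and non-diabetic mice with and without pargyline. The genes were chosen by symbol for what their proteins do, and every non-control probe whose gene name in the scanner files equalled a listed symbol was taken. The arrays named 30458 genes in all, all 35 genes had a probe, and 34 of them had a probe that could be tested. Only Derl3, a membrane protein of ER-associated degradation, had none. RNA came from heart muscle of male C57BL6/J mice aged 5 months, with 1 array per mouse and 3 mice in each of 4 groups. C mice received vehicle and had no diabetes, and C+P mice differed from them in receiving pargyline, an inhibitor of monoamine oxidase, at 50 mg/kg per day for 12 weeks. D mice had diabetes after 50 mg/kg of streptozotocin per day on 5 days, a compound that is toxic to the insulin-producing cells of the pancreas, followed by vehicle. D+P mice had the same diabetes and the same pargyline dose. The labels name no transgene or targeted allele in any group, a mouse counted as diabetic at a blood glucose of at least 17 mM, and the drug was given to the whole animal, so the model is restricted neither to the heart nor to one cell type.

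Proteins that enter the secretory route are folded in the ER by chaperones such as BiP, are cross-linked by disulphide isomerases, and are sent back to the cytosol for degradation when folding fails. Misfolded protein in the ER lumen is sensed by IRE1 (gene Ern1), ATF6 and PERK (gene Eif2ak3), and the factors they release, among them spliced XBP1 and cleaved ATF6, raise transcription of the chaperone genes. In heart muscle the ER is continuous with the sarcoplasmic reticulum, which stores calcium, and calreticulin, BiP and GRP94 also bind calcium there. The question of the comparison was whether these transcripts were altered by diabetes and whether pargyline altered them in either background.

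The response reaches many of these genes through the ER stress element (ERSE), a pair of short motifs at a fixed distance that was first described in promoters of ER chaperone genes. The promoter sequences here are those of RefSeq on build GRCm38.p6, from 250 bases before to 50 after the annotated start of transcription. A window was found for 29 of the 35 genes, with Ero1l matched through its current RefSeq name Ero1a. Hyou1, Manf, Atf6, Derl1, Sec61a1 and Hspa13 had none. The 100 bases before the start of Hspa5, which encodes BiP, show the element in place, with its fixed letters in capitals.
Hspa5 (chr2:34771990-34772089, plus strand): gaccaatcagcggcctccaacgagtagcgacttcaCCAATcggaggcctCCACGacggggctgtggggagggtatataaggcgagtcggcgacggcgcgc

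The letters searched were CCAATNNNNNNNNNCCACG on both strands, in which N is any base and the spacer has 9 of them. The element was found in 9 of the 29 genes (31%), among 39 of all 32851 RefSeq windows (0.119%). Since the element was defined on genes of this kind, its frequency among them is no independent result. The sites are shown because they mark the promoters through which the response is known to act. They are read on the strand that carries the motif, with the fixed letters in capitals and 10 flanking bases on each side.
Hspa5 (chr2:34772015-34772053, plus strand): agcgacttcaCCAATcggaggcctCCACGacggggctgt
Hsp90b1 (chr10:86705628-86705666, minus strand): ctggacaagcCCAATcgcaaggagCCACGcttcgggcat
Hsp90b1 (chr10:86705523-86705561, plus strand): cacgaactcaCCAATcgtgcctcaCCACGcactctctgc
Calr (chr8:84847065-84847103, plus strand): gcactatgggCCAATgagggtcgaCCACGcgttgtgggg
Canx (chr11:50325790-50325828, minus strand): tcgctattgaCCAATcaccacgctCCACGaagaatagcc
Pdia6 (chr12:17266481-17266519, plus strand): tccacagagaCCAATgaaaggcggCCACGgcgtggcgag
Dnajc3 (chr14:118937817-118937855, plus strand): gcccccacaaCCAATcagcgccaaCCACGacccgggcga
Creld2 (chr15:88819510-88819548, minus strand): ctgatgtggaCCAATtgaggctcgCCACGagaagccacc
Syvn1 (chr19:6046522-6046560, plus strand): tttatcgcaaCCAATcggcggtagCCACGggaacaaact
Derl3 (chr10:75893232-75893270, minus strand): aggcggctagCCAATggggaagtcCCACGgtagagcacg

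The Hspa5 site ended 47 bases before the start, and the Syvn1 site, 26 bases before it, was the nearest of those found. The 2 sites of Hsp90b1, the gene of GRP94, lay on opposite strands. A related element, ERSE-II, searched on both strands as ATTGG, any base and CCACG, was found in 2 of the 29 genes (6.9%) and in 0.0365% of all windows. It shares CCACG with ERSE, and its ATTGG is the other strand of CCAAT. The sites of Dnajb11, which lies just after the start and is shown without flanks, and of Herpud1 were as follows.
Dnajb11 (chr16:22857852-22857862, plus strand): ATTGGcCCACG
Herpud1 (chr8:94386367-94386397, plus strand): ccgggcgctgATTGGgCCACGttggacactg
The letters TGACGTGG, the core of the unfolded protein response element, were in no window of the 29 genes and in 0.676% of all windows. A window without a match says only that these letters are not in it. The motifs CCAAT and CCACG alone, which are contained in ERSE, were common everywhere, with CCAAT in 79.3% of the members and 41.1% of all genes with a window, and CCACG in 79.3% and 35.5%.

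**Figure D1:**
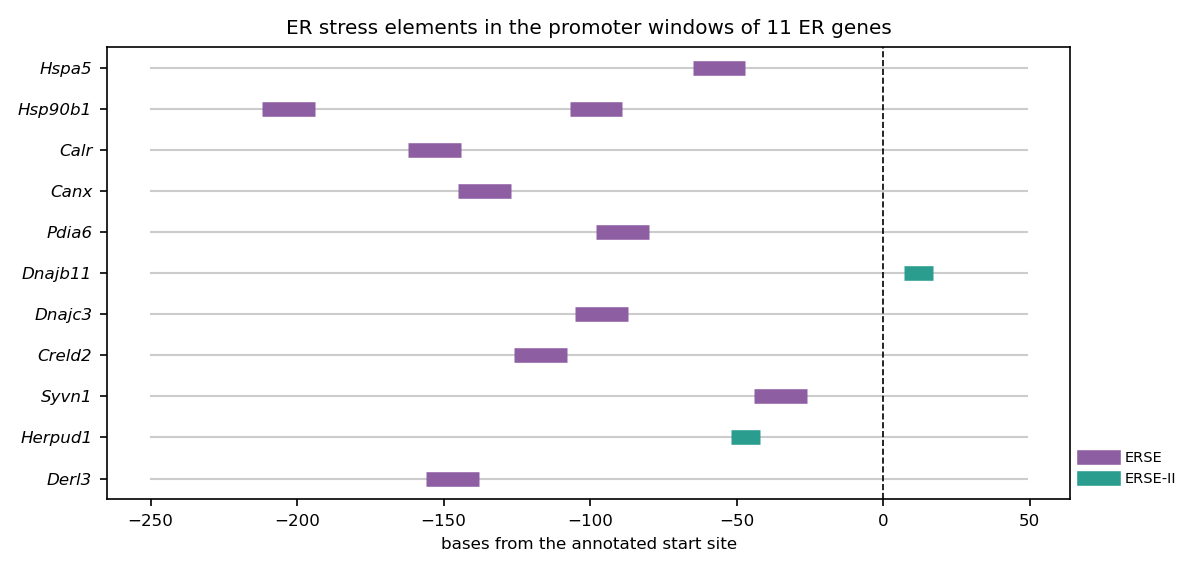
Position of the ER stress elements in the promoter windows of 11 genes, in bases from the annotated start (dashed line), with each window drawn as a grey line from 250 bases before the start. All ERSE sites lie before the start and Dnajb11 alone has its site, an ERSE-II, after it.

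Signal is given as log2 of the background-corrected intensity after quantile normalisation between the 12 arrays, so that a difference of 1 is 2-fold. A gene is described by its brightest tested probe unless stated otherwise, and levels of different probes are not compared. The number of spots well above background ranged from 23556 (D 1) to 29231 (C 2) of 59305, and correlations between arrays ranged from 0.941 to 0.988. The array D 1 stood apart from the rest, since it held the highest or the lowest of the 12 values for 16 of the 34 genes (47.1%) and for 36.8% of all tested probes. It is part of the D group in all that follows. Without it the sign of the difference between D and C turned for 9 of the 34 genes, from lower to higher for Creb3l2, Derl1, Eif2ak3, Hspa5, Manf and Sec61a1 and from higher to lower for Edem1, Hsp90b1 and Syvn1. C and D shared a slide, and the pargyline groups shared the other, so pargyline and slide cannot be told apart. Non-diabetic and diabetic samples occupied different rows of each slide, and row and diabetes cannot be told apart either. In tissue RNA, fewer cells of a type and less RNA per cell cannot be told apart.

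The tissue label was borne out by the cardiomyocyte markers, all 6 of which were well above background on all 12 arrays, with a summed log2 level of 19.26 to 19.34 in C and 19.15 to 19.43 in D. Plasma cells, which carry large amounts of ER chaperones, left little signal, as 4 of the 5 plasma and B cell markers on the array were well above background on no array. The summed level of these markers was 7.23 to 7.42 in C and 7.28 to 7.99 in D, and 6.57 to 7.41 in C+P and 7.02 to 8.16 in D+P. All 5 endothelial markers were detected on every array, and their sum was 14.8 to 15.0 in C, 14.3 to 14.8 in D, 14.5 to 15.1 in C+P and 14.8 to 15.2 in D+P. Macrophage markers (4 of 4 detected) summed to 12.0 to 12.4 in C, 11.6 to 12.1 in D, 12.0 to 12.5 in C+P and 11.6 to 12.0 in D+P. All 5 fibroblast markers were detected on every array. Their sum was 15.3690 to 15.5302 in C and 15.2563 to 15.3675 in C+P, which did not overlap. It was 15.4284 to 15.5920 in D, overlapping C, and 15.3985 to 15.6898 in D+P, above C+P without overlap. The part of these cell types in the values below was not tested.

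No probe of the 35 genes passed the threshold, an adjusted p of 0.05 in limma over all 30860 tested probes, in any comparison. In D against C the smallest adjusted p among the 58 tested probes of the genes was 0.340, where 0.00648% of all probes passed. At an unadjusted p under 0.05 there were 4 of the 34 genes (11.8%), 2 of them higher and 2 lower in D, beside 10.8% of all probes. The genes were thus called about as often as any other probe. By sign, 22 genes were higher and 12 lower in D, with a median log2 difference of 0.13 (range -0.50 to 0.63) against -0.01 over all tested probes. Without the array D 1 the split was 25 to 9 and the median 0.15, and without C 3 they were 21 to 13 and 0.09. The values of D and C did not overlap for 9 genes (26.5%), beside 22.3% of all probes. With 2 arrays left in a group the share of all probes rises too. Without D 1 the values did not overlap for 16 genes (47.1%), beside 41.3% of all probes, and without C 1 for 17 (50%), beside 32.7%.

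In D+P against C+P the smallest adjusted p (limma) was 0.644, and 0.0454% of all probes passed. Of the 34 genes, 24 were higher and 10 lower in D+P, with a median of 0.08 against 0.01 over all probes. Over all 58 tested probes of the genes, 31 were higher and 27 lower, with a median of 0.0047. Scaled to the 75th percentile of each array instead, 20 genes were higher, and without the array C+P 3 it was 19, with a median of 0.02. A single gene (2.94%) had an unadjusted p under 0.05, beside 7.46% of all probes. The values did not overlap for 3 genes (8.82%), Calr and Canx being higher and Wfs1 lower in D+P, beside 13.9% of all probes. The summed fibroblast markers were higher in D+P as well. Without the array C+P 1 the values of 9 genes (26.5%) did not overlap, beside 24.8% of all probes. Both diabetes comparisons together, averaged over pargyline, had a smallest adjusted p (limma) of 0.250, and 0.107% of all probes passed. Unadjusted, 3 genes (8.82%) were under 0.05, Wfs1, Dnajb9 and Atf6, beside 11.4% of all probes. The sign was positive in both comparisons for 16 genes and negative in both for 4, while 14 genes differed in sign between them, 6 of them higher in D and lower in D+P and 8 the reverse.

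The precision of these differences can be read from their 95% intervals, whose half-width had a median of 0.44 on the log2 scale. For 30 of the 34 genes in D against C, the interval lay inside a 2-fold change in either direction, and the same number was found in D+P against C+P. Smaller differences were within the reach of these intervals for most genes, so the lack of calls does not show that the levels were equal.

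**Figure D2:**
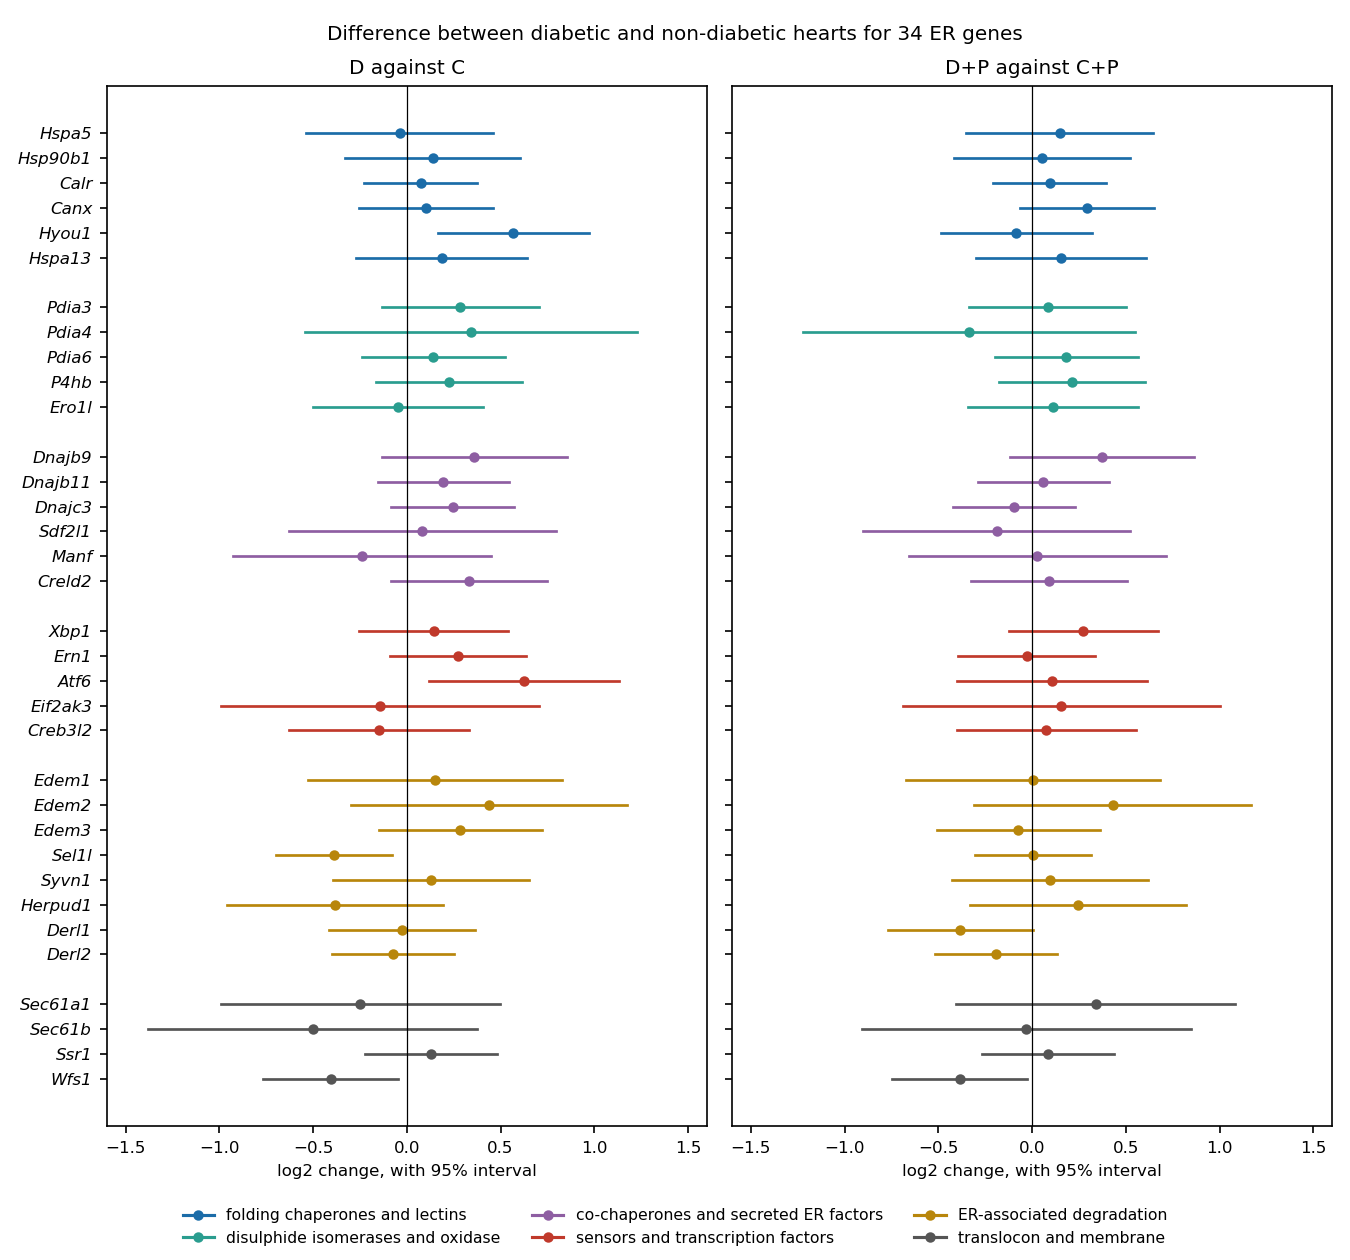
Log2 difference between diabetic and non-diabetic hearts for the brightest tested probe of 34 genes, coloured by role, with its 95% interval from limma (3 arrays a group), for D against C (left) and D+P against C+P (right). Most intervals include 0 and Wfs1 is the gene whose interval lies below 0 in both panels.

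Among the folding chaperones, BiP (Hspa5), the chief chaperone of the ER lumen, had log2 levels of 13.79, 14.01 and 13.87 in C and 13.37, 14.10 and 14.09 in D. In C+P it stood at 13.66, 14.29 and 13.93, and in D+P at 14.00, 14.09 and 14.23. The D arrays lay on both sides of the C range, D 1 being lowest of all at this probe. At both other probes of Hspa5, D 1 was the highest of the 3 D arrays. At the brightest probe, D and C differed by -0.04 (95% interval -0.54 to 0.46, adjusted p = 0.964 in limma), and without D 1 it was 0.20. With pargyline in both groups it was 0.15 (-0.35 to 0.65, adjusted p = 0.904 in limma). The other probes of Hspa5, at chr2:34631136-34631195 and chr2:34630699-34631075 (mm9, the build of the files), gave 0.13 and 0.27 in D against C, beside the brightest at chr2:34631913-34631972.

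GRP94 (Hsp90b1), the HSP90 of the ER lumen, had levels of 13.52, 13.54 and 13.38 in C and 14.06, 13.44 and 13.36 in D. The D arrays again spanned the C range, here with D 1 highest. The difference was 0.14 (-0.33 to 0.61, adjusted p = 0.823 in limma), and without D 1 it turned to -0.08. With pargyline, 13.61, 13.59 and 13.28 in C+P faced 13.31, 13.78 and 13.55 in D+P, a difference of 0.05.

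Calnexin (Canx) and calreticulin (Calr) are the lectin chaperones that hold glycoproteins until they fold. Canx stood at 12.30, 12.55 and 12.29 in C+P and at 12.89, 12.57 and 12.56 in D+P. The groups did not overlap, though the highest C+P array (12.55) lay just under the lowest D+P array (12.56). The difference was 0.29 (-0.06 to 0.65, adjusted p = 0.717 in limma), and in D against C it was 0.10. Leaving out single arrays gave 0.18 to 0.38 in the first and 0.03 to 0.19 in the second. A second probe of Canx gave 0.25 and -0.07 in these comparisons. Calr differed by 0.09 with pargyline, where the groups did not overlap, and by 0.07 without it (-0.23 to 0.38). Its highest C+P array (11.435) lay just under its lowest D+P array (11.442). The first difference was 0.04 without D+P 3, and the second was 0.01 without D 3.

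Hyou1, a large HSP70-like chaperone of the ER, was dim. Its levels were 4.69, 4.43 and 4.74 in C, 5.21, 5.20 and 5.17 in D, 4.96, 4.43 and 4.76 in C+P, and 4.87, 4.61 and 4.41 in D+P. The D arrays lay together above all the others, and yet the probe was well above background on 1 of the 12 arrays. Since it was well above background on no C and no D+P array, and on 1 of the 3 D arrays, no fold is given for it. The adjusted p in limma was 0.348 in D against C, and D+P against D gave 0.249. Hspa13, a microsomal HSP70, was higher in D by 0.19 without overlap.

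The disulphide isomerases form and rearrange the disulphide bonds of secretory proteins, and Ero1l reoxidises them. Of these 5 genes, 4 were higher in D than in C, with a median of 0.22 (range -0.05 to 0.34). None had an unadjusted p under 0.05. With pargyline in both groups 4 of 5 were higher, with a median of 0.11. Pdia4 showed the widest scatter, with levels of 6.66, 6.50 and 6.31 in C, 6.94, 6.71 and 6.84 in D, 8.03, 6.67 and 5.98 in C+P, and 6.37, 6.52 and 6.78 in D+P. The range within C+P exceeded every difference between the group means. Pdia6 and P4hb differed by 0.14 and 0.22 in D against C and by 0.18 and 0.21 in D+P against C+P. The differences of Pdia6 were 0.019 without D 1 and 0.05 without C+P 3.

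Of the 6 co-chaperones and secreted ER factors, 5 were higher in D and 4 in D+P than in their controls, with medians of 0.22 and 0.04. ERdj4 (Dnajb9), a J-domain partner of BiP, stood at 9.26, 9.02 and 8.96 in C and at 9.32, 9.71 and 9.30 in D. It stood at 9.14, 8.96 and 8.33 in C+P and at 8.996, 9.30 and 9.26 in D+P. D lay above C without overlap, while D+P and C+P overlapped. The difference averaged over pargyline was 0.37 (0.02 to 0.72, adjusted p = 0.417 in limma). Its second probe gave 0.16 in D against C and, with pargyline in both groups, -0.12. Creld2, a secreted factor that follows ER stress, was higher by 0.33 in D (-0.08 to 0.75, adjusted p = 0.529 in limma), with 10.44, 10.05 and 10.01 in C and 10.85, 10.30 and 10.33 in D. These values overlapped, C 1 lying above 2 of the 3 D arrays, and without D 1 the difference was 0.15.

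The 3 sensors and their factors gave no call. Ern1, the kinase and endonuclease that splices Xbp1, stood at 7.63, 7.55 and 7.43 in C and 7.95, 7.80 and 7.70 in D. The groups did not overlap, with a difference of 0.27 (-0.09 to 0.64, adjusted p = 0.548 in limma), against -0.03 with pargyline. A second probe of Ern1 gave -0.22 in D against C. Atf6, which is released from the ER membrane by proteolysis, had levels of 9.37, 9.48 and 9.51 in C and 10.59, 9.84 and 9.81 in D. Every D array was above every C array, and D 1 was highest. The difference was 0.63 (0.12 to 1.13, adjusted p = 0.397 in limma), and without D 1 it was 0.37. In C+P and D+P the levels of Atf6 were 10.05, 9.83 and 9.52 and 9.68, 10.03 and 10.01, which overlapped, with a difference of 0.10. A second probe of Atf6 was well above background on 1 of the 12 arrays and gives no measured difference.

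PERK (Eif2ak3), the kinase that halts translation under ER stress, scattered more than it differed. Its levels were 7.34, 6.58 and 6.98 in C and 6.02, 7.33 and 7.12 in D, and 6.33, 6.97 and 6.85 in C+P and 6.25, 7.31 and 7.06 in D+P. The difference was -0.14 in D against C (-0.99 to 0.70, adjusted p = 0.911 in limma) and 0.26 without D 1. The transcription factor Xbp1 stood at 11.91, 11.59 and 11.48 in C and 11.78, 11.86 and 11.76 in D. It stood at 12.17, 11.81 and 11.58 in C+P and 12.22, 12.06 and 12.10 in D+P. D lay inside the C range, and D+P was above D on every array at this probe, the other probes giving -0.26 and -0.48 in D+P against D. The difference was 0.14 in D against C (-0.26 to 0.54) and 0.27 in D+P against C+P (-0.12 to 0.67, adjusted p = 0.772 in limma). Leaving out single arrays gave 0.05 to 0.27 in the first and 0.14 to 0.43 in the second. All 3 tested probes of Xbp1 were higher in D, by 0.14 to 0.45, and the arrays as used here do not separate its spliced from its unspliced form. Creb3l2, an ER-anchored factor that is cleaved like ATF6, had a brightest probe with a difference of -0.15 in D against C, which was 0.13 without D 1, and a second one with 0.67.

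ER-associated degradation draws misfolded proteins out through HRD1 (Syvn1) and its partner SEL1L. Of the 8 tested genes 4 were higher and 4 lower in D, with a median of 0.05, and in D+P against C+P the split was 5 to 3 with a median of 0.00. The first split depended on D 1, without which Derl1 turned to 0.04 and Edem1 and Syvn1 to -0.16 each. Sel1l, the adaptor of the HRD1 ligase, stood at 11.83, 11.75 and 11.80 in C and 11.23, 11.46 and 11.53 in D. It stood at 11.71, 11.86 and 11.75 in C+P and 11.90, 11.66 and 11.78 in D+P. The 3 D arrays were below the other 9. The difference from C was -0.39 (-0.70 to -0.08, adjusted p = 0.396 in limma) and D+P minus D was 0.37 (adjusted p = 0.295 in limma). A second probe of Sel1l was not well above background on any array and gives no measured difference. Syvn1 itself differed by 0.13 and 0.10 in the 2 diabetes comparisons, the first being -0.16 without D 1 and the second -0.02 without C+P 3.

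Herpud1, an ER membrane protein that is among the genes most strongly induced by ER stress, stood at 12.84, 12.54 and 12.42 in C and 12.72, 11.69 and 12.25 in D. It stood at 11.84, 12.33 and 12.26 in C+P and 12.28, 12.25 and 12.63 in D+P. C+P lay below C without overlap, as the summed fibroblast markers did, the other groups overlapping both. C+P minus C was -0.46 (-1.03 to 0.12, adjusted p = 1.00 in limma), and the interaction, which is the diabetes difference with pargyline minus that without it, was 0.63 (adjusted p = 0.743 in limma). The interaction was 0.36 without D 2 and 0.88 without D 1. A second probe of Herpud1 gave -0.22 in C+P against C and 0.25 for the interaction. In D against C it gave 0.13, where the brightest gave -0.38. Derl1, a channel subunit for retrotranslocation, had levels of 9.58, 9.37 and 9.23 in C+P and 9.07, 8.69 and 9.27 in D+P, which overlapped by 1 array on each side. The log2 difference was -0.38 (-0.77 to 0.00, adjusted p = 0.671 in limma), and without D+P 2 it was -0.22. Both of its probes were lower in both diabetes comparisons, though the brightest, at -0.03 in D against C, was at 0.04 without D 1.

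Wolframin (Wfs1), a calcium-handling membrane protein of the ER, had the smallest unadjusted p of the set in the averaged comparison. Its levels were 11.69, 11.48 and 11.50 in C and 10.90, 11.23 and 11.32 in D, and 11.69, 11.46 and 11.32 in C+P and 11.16, 11.01 and 11.14 in D+P. Diabetic hearts lay below their controls without overlap both with and without pargyline, the only member of which this held. The difference was -0.41 in D against C (-0.77 to -0.04) and -0.39 in D+P against C+P (-0.75 to -0.02). Averaged over pargyline it was -0.40 (-0.65 to -0.14), with an unadjusted p of 0.00595 and an adjusted p of 0.250 in limma. Wfs1 had a single probe, at chr5:37357424-37357483 (mm9), and so no second measurement. The translocon subunits Sec61a1 and Sec61b scattered widely, with differences of -0.25 and -0.50 in D against C and intervals of -0.99 to 0.50 and -1.38 to 0.37. The first rested on D 1. Sec61a1 stood at 10.73, 10.63 and 10.88 in C and at 9.55, 10.95 and 11.0028 in D, and without D 1 it was higher in D by 0.23 without overlap. A second Sec61a1 probe, well above background on all 12 arrays, gave -0.22, and a second Sec61b probe of the same kind gave 0.21. The third Sec61a1 probe gave -0.34, so all 3 were lower in D with D 1 included.

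**Figure D3:**
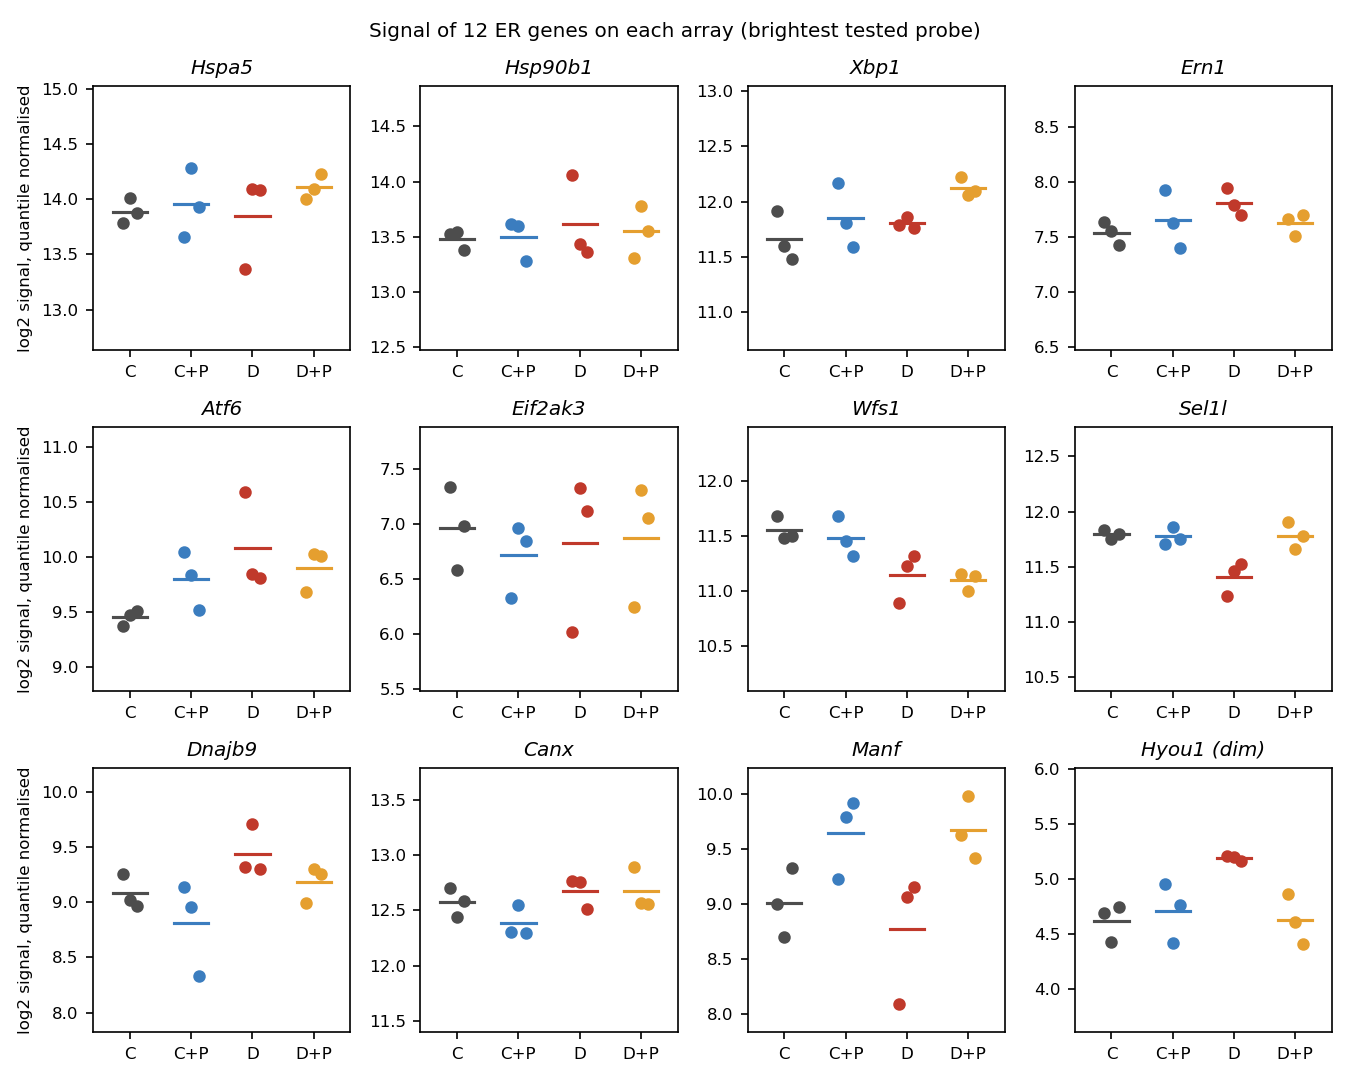
Log2 signal of 12 genes on each array (points) with the group mean (lines), for C, C+P, D and D+P with 3 arrays a group and the same span of 2.4 log2 units in every panel. Wfs1 lies lower in both diabetic groups, Sel1l in D, Hyou1 lies higher in D at a dim level, and the other panels overlap in at least 1 diabetes comparison.

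Pargyline was compared within non-diabetic and within diabetic hearts. In C+P against C, 20 genes were higher and 14 lower (24 higher when scaled to the 75th percentile) with a median of 0.04. Without the array C+P 1 the split turned to 15 higher and 19 lower, with a median of -0.03. In this comparison the smallest adjusted p (limma) among their probes was 0.915, where 0.0324% of all probes passed. No gene had an unadjusted p under 0.05 at its brightest probe, beside 4.43% of all probes, and the values of 5 genes (14.7%) did not overlap, beside 15.4%. These were Atf6, Creb3l2, Dnajc3 and Edem1, higher in C+P, and Herpud1, lower. In D+P against D, 14 genes were higher and 20 lower with a median of -0.02, and without D 1 the split turned to 19 higher and 15 lower with a median of 0.03. Without D+P 2 it was 17 to 17, with a median of 0.01. The smallest adjusted p (limma) was 0.176, where 0% of all probes passed, and 3 genes (8.82%) had an unadjusted p under 0.05, beside 13.3% of all probes. Without overlap were 9 genes (26.5%), 4 of them higher and 5 lower in D+P, beside 17% of all probes, and without D 1 it was 14 (41.2%), beside 33.8%. With the mean over each gene's probes it was 3 (8.82%), beside 16.8% of all genes.

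Dnajc3, also known as p58IPK, an ER co-chaperone that restrains PERK, stood at 7.63, 7.44 and 7.57 in C and 7.93, 7.96 and 7.71 in C+P. The groups did not overlap, and the difference was 0.32 (-0.01 to 0.65, adjusted p = 1.00 in limma). Manf, a secreted factor that responds to ER calcium loss, had levels of 9.0001, 8.70 and 9.33 in C and 9.23, 9.79 and 9.92 in C+P. In D they were 8.09, 9.06 and 9.16, and in D+P 9.63, 9.98 and 9.42. D+P lay above D without overlap, and C+P and C overlapped. The differences were 0.91 in D+P against D (0.22 to 1.59, adjusted p = 0.271 in limma) and 0.64 in C+P against C (-0.05 to 1.32), the first being 0.57 without D 1. The second probe of Manf gave -0.22 in D+P against D, and in D against C the probes gave -0.24 (0.10 without D 1) and 0.61. The smallest adjusted p of a member in D+P against D came from a second probe of P4hb (log2 difference -1.68), for which the files give no genomic position. It was also the source of the smallest adjusted p in C+P against C, at -1.24 without overlap. The bright probe of P4hb gave -0.27.

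The interaction gave no call among the 58 probes, with a smallest adjusted p (limma) of 0.675, where 0.00648% of all probes passed. Hyou1 alone (2.94% of the genes) had an unadjusted p under 0.05, beside 7.03% of all probes, and since its probe was well above background on 1 array no size is given. Sel1l followed at 0.39 (-0.05 to 0.83). The smallest adjusted p came from its second probe, the one not well above background on any array. By sign, 15 genes were higher and 19 lower, with a median of -0.02, and 9 were higher when scaled to the 75th percentile. The split turned to 20 higher and 14 lower without C+P 1 (median 0.045), and to 18 and 16 without C 3 (0.026) or without D+P 2 (0.027). The test of the difference between the diabetes effects with and without pargyline therefore singled out none of the genes.

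**Figure D4:**
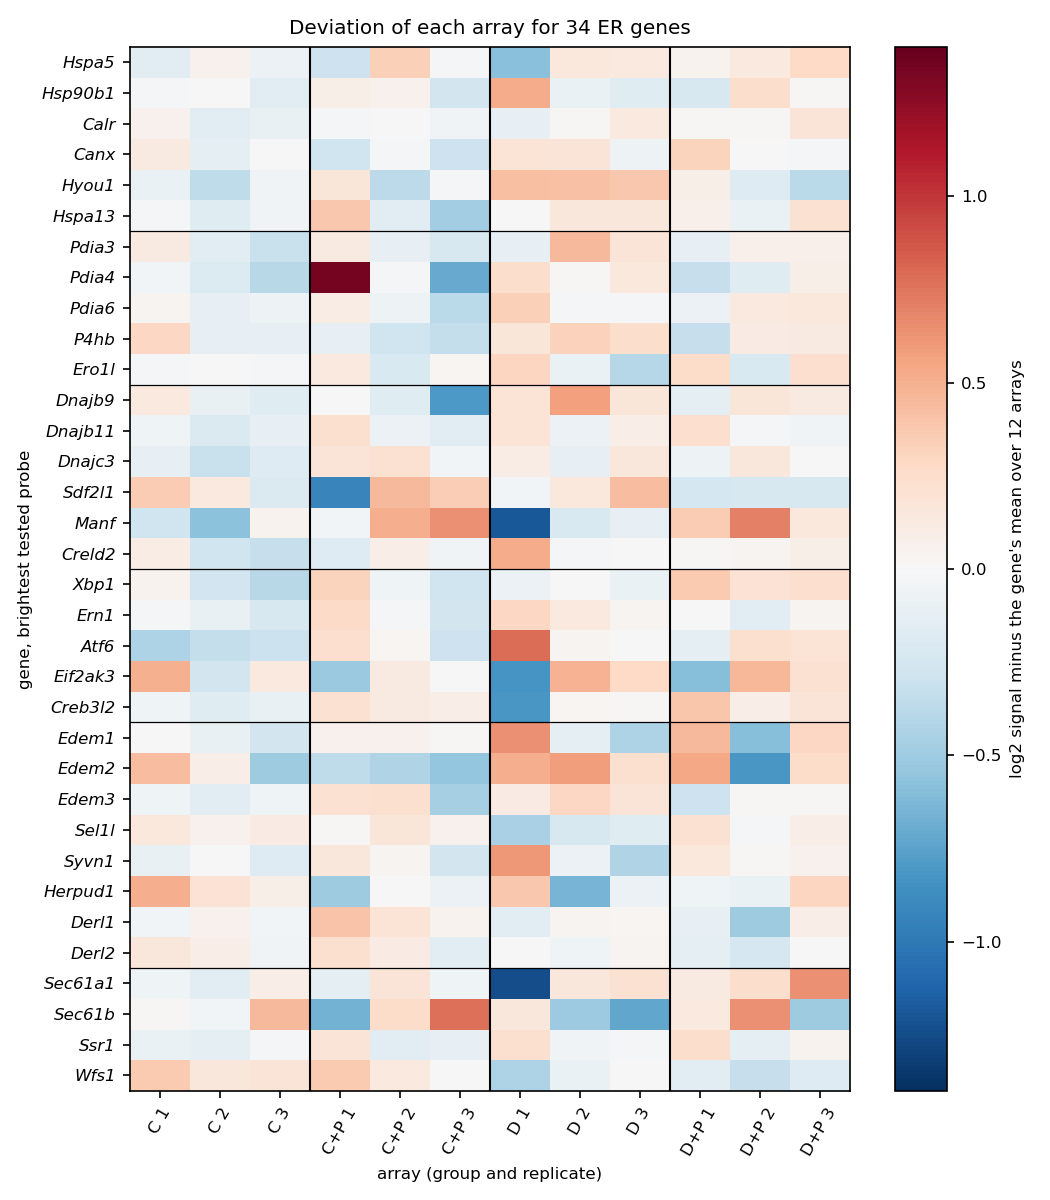
Log2 signal of each array minus the mean of the gene over the 12 arrays, for 34 genes ordered by role (rows) and 12 arrays (columns), with red above and blue below the mean. D 1 holds the highest or lowest value of 16 genes, with Atf6, Syvn1 and Edem1 above and Manf, Sec61a1 and Creb3l2 below their means.

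Probes of the same gene often differed in sign. Of the 21 genes with at least 2 tested probes, all probes were higher in D than in C for 7, all were lower for 3, and 11 disagreed. Without D 1 the numbers were 11, 1 and 9. In D+P against C+P they were 4, 6 and 11. Probes not well above background are included in these counts. Hspa5, Ern1, Manf, Sel1l, Herpud1 and Creb3l2 were among the genes in disagreement in D against C, and Xbp1, Atf6, Pdia3, P4hb, Dnajb9, Dnajb11 and Hyou1 had all their probes higher. Of the latter, the second Atf6 probe and the brightest Hyou1 probe were well above background on 1 array each. For 4 genes even the brightest tested probe was not well above background on every array, and no probe of the set was saturated. Of the 13 untested probes, the single Derl3 probe was well above background on 1 array.

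**Figure D5:**
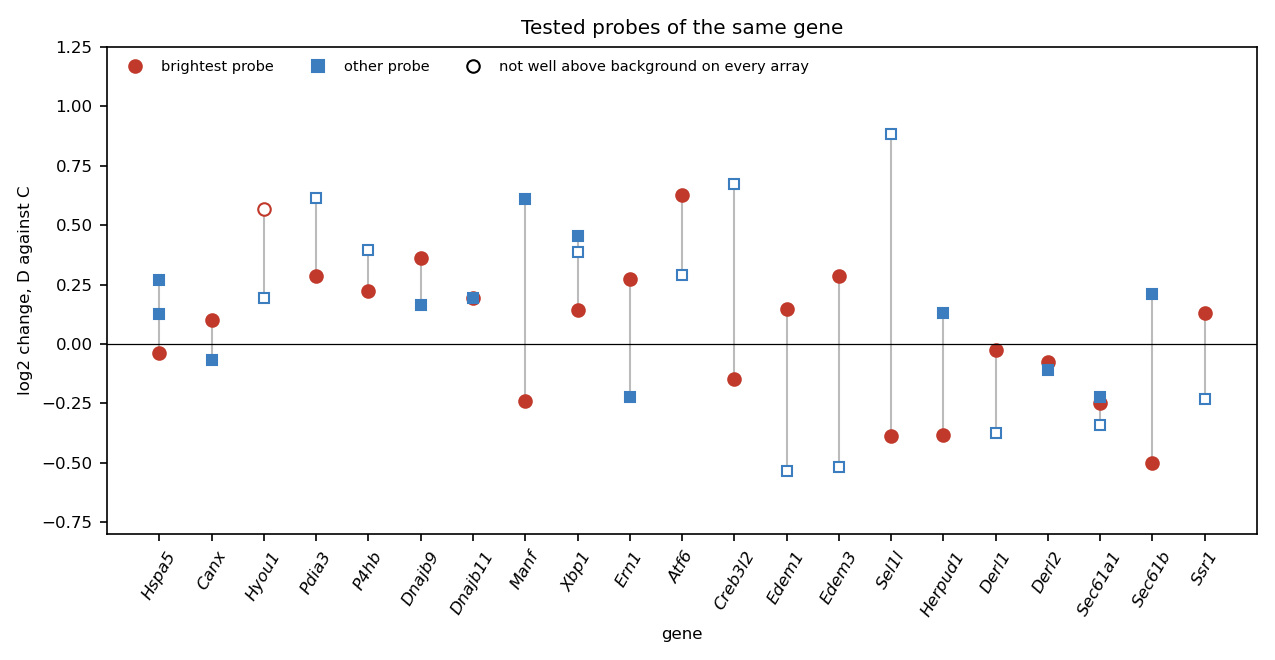
Log2 difference between D and C for each tested probe of the 21 genes with at least 2, with the brightest probe as a circle, other probes as squares, and open symbols for probes not well above background on every array. The points of 11 genes lie on both sides of 0.

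The median SD of the 34 genes over the 3 arrays of a group was 0.11 in C, beside 0.17 over all tested probes, and 0.22 in D, beside 0.34. It was 0.20 in the C+P hearts, beside 0.28, and 0.17 in the D+P hearts, beside 0.28. The genes thus had a lower median spread than all probes in each of the 4 groups, a description with no test. The probes compared differ in brightness. The brightest probe was well above background on all 12 arrays for 30 of the 34 genes. The same held for 18334 of all 30860 tested probes. Whether spread followed brightness was not tested. The median deviation of the 34 genes on single arrays ranged from -0.12 (C 2) to 0.16 (D 1).

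Genes with the ER stress element in their window, shown above, were read separately from the others. The 8 tested ones (Hspa5, Hsp90b1, Calr, Canx, Pdia6, Dnajc3, Creld2 and Syvn1) had a median of 0.13 in D against C, 7 being higher, and the 20 members with a window and no element had a median of 0.14, 12 being higher. In D+P against C+P the medians were 0.10 and 0.07. Averaged over pargyline, all 8 were higher, by 0.05 to 0.21, as were 13 of the 20 without the element. None of the 8 and 2 of the 20 had an unadjusted p under 0.05 (limma), beside 11.4% of all probes. Without D 1 the averaged value turned to -0.0135 for Hsp90b1 and -0.0292 for Syvn1, and without C+P 1 to -0.0201 for Hspa5. Outside the set, 28 further genes carried the element, of which 9 were tested, with a median of 0.06 in D against C.

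Beyond the 35 genes, 126 other genes of the same routes were listed and 123 tested, and none passed the threshold in any of the 6 comparisons. At an unadjusted p under 0.05 there were 8 (6.5%) in D against C, and with pargyline in both groups 6 (4.88%), below the 10.8% and 7.46% of all probes. The values of D and C did not overlap for 40 of them (32.5%, 34 higher), beside 22.3% of all probes, and those of D+P and C+P for 17 (13.8%), beside 13.9%. In the group of other sensors, proteases and PERK-branch genes, 10 of 20 were higher and 10 lower in D, with a median of -0.01. Its transcription factors Atf4 and Ddit3 (CHOP), which act downstream of PERK, differed by -0.23 and -0.22 in D against C and by -0.08 and 0.20 in D+P against C+P. Trib3, a pseudokinase induced by CHOP, was higher by 0.71 in D+P, without overlap with C+P (adjusted p = 0.282 in limma), and differed by -0.07 in D against C. Ppp1r15a (GADD34), which directs the phosphatase that reverses the action of PERK, was higher in C+P than in C by 0.55 (adjusted p = 0.712 in limma).

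Other folding and glycan quality control genes had a median of -0.07 in D against C (13 of 32 higher) and -0.03 in D+P against C+P. For translocation, signal peptidase and N-glycosylation the medians were 0.14 (21 of 30 higher) and 0.05, and for further degradation genes 0.02 (15 of 23 higher) and -0.14 (4 of 23 higher). The carriers between ER and Golgi showed the most even sign. All 18 tested genes of the COPII coat, its cargo receptors and the KDEL receptors were higher in D than in C, with a median of 0.26 and a range of 0.02 to 2.03, while in D+P against C+P 10 were higher and 8 lower, with a median of 0.01 that moved to 0.16 without C+P 1 (16 higher) and to -0.14 without C+P 3 (3 higher). None of the 18 passed the threshold (smallest adjusted p = 0.441 in limma). At an unadjusted p under 0.05 there was 1 (5.56%, beside 10.8% of all probes), Sec23a at 2.03, a subunit of the inner coat. The values of D and C did not overlap for 7 of the 18 (38.9%), beside 22.3% of all probes. Without D 1, 16 of the 18 were higher with a median of 0.21, and without D 2, 15 were. The KDEL receptors Kdelr1, Kdelr2 and Kdelr3, which return escaped chaperones to the ER, differed by 0.26, 0.31 and 0.41.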

How the data were processed

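Heart muscle RNA of 12 mice in 4 groups of 3 (C, C+P, D, D+P, from the sample labels) was measured on 1-colour Agilent arrays, 200 ng of RNA per sample labelled with Cy3. The deposited scanner files give spot intensity on a linear scale, which the authors extracted and background-corrected with Feature Extraction (version 12.0.0.7 per the file headers, while the methods name another). A further deposited file holds intensity that the authors quantile normalised (47757 spots). The members and lists were chosen with earlier results of these data known.

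Control spots were left out, outlier spots were set to missing, log2 signals were quantile normalised, and repeated spots were averaged. A probe was tested (30860 of 56605) if its spots were positive and significant in every group on no fewer than 50% of that group's arrays. limma 3.58.1 in R 4.3.3 (data.table version 1.17.8) fitted 1 mean per group, with 8 residual and 2.62 prior degrees of freedom, and Benjamini-Hochberg adjustment ran over all tested probes, two-sided. The fit was tested on simulated data. Genes named with values are Hspa5, Hsp90b1, Xbp1, Ern1, Atf6 and Eif2ak3, then the 5 genes of smallest unadjusted p in each diabetes comparison and the 3 in each other. Others named were chosen after their values were seen. Precision is limited by the number of arrays, and p-values measure the spread between single mice. Values at or near background were kept. Replicate numbers were not used as pairs in the main fit. Correlations of same-numbered deviations ran from -0.20 to 0.20 over 18 pairs. Those of different-numbered deviations ran from -0.19 to 0.21 over 36 pairs. These values show no pairing but cannot exclude one. Alternatives covered scaling, background, filters, blocks, array weights, the test and left-out arrays. Promoters came from RefSeq GRCm38.p6 and probe positions are mm9. Figures were drawn with Python and matplotlib.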

Additional observations from a re-analysis of the deposited data

How the results depend on the processing

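No probe of the 35 genes passed the threshold in any of the 6 comparisons under any alternative that was run, the smallest adjusted p (limma) under any of them being 0.0771, in D+P against D. The methods' t-test, run on the same values, gave unadjusted calls for 9 of the probes in D against C (15.5%, beside 11.5% of all probes), for 1 in D+P against C+P (1.72%, beside 6.55%), for 3 in C+P against C (5.17%, beside 7.69%), for 5 in D+P against D (8.62%, beside 8.34%), and 0 after Bonferroni or Benjamini-Hochberg adjustment. With the replicate block the count was 0 and the smallest adjusted p (limma) was 0.338 in D against C, while D+P against D gave 0.252. It changed no call. With array weights, 2 calls appeared among the other sensors and PERK-branch genes, Trib3 in D+P against C+P (0.83, adjusted p = 0.0415 in limma) and Ppp1r15a in C+P against C (0.63, adjusted p = 0.0307 in limma). With the weights, the share of all probes at an unadjusted p under 0.05 (limma) rose too. It went from 7.46% to 11.1% in D+P against C+P and from 4.43% to 14.1% in C+P against C. The cause was not tested.

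Of 833 values of named genes under the alternatives, 22 changed sign, all in comparisons whose interval includes 0. Hspa5 in D against C turned to 0.15 under scaling to the 75th percentile, 0.14 with slide column as a block and 0.10 with array weights, and in D+P against C+P to -0.047 with array weights. Hsp90b1 turned to -0.030 with slide column as a block in D+P against C+P and to -0.0041 with array weights in D against C. Eif2ak3 in D against C turned to 0.091 with slide column as a block and 0.29 with array weights, and Ern1 in D+P against C+P to 0.071 under normexp. Leaving out single arrays gave, in D against C, -0.16 to 0.20 for Hspa5, -0.0805 to 0.27 for Hsp90b1 and -0.39 to 0.26 for Eif2ak3. In D+P against C+P it gave -0.0022 to 0.31 for Hspa5, -0.0635 to 0.17 for Hsp90b1, -0.16 to 0.11 for Ern1, -0.0366 to 0.23 for Atf6 and -0.0631 to 0.47 for Eif2ak3. The cause was not tested.

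The 75th percentile scaling gave medians over the 58 probes of 0.21 (0.14 in the main setting) in D against C and of -0.003 (0.0047) in D+P against C+P, beside 0.026 and 0.0012 over all probes. It gave -0.15 in D+P against D, where the main value was -0.06. The probes at an unadjusted p under 0.05 ranged over the alternatives from 4 (9.52%, strict filter, beside 13.3% of all probes) to 12 (20.7%, array weights, beside 19%) in D against C (main 7). Averaged over pargyline (main 5) the highest number was 14 (24.1%, array weights, beside 18.7%) and the lowest 2 (3.45%, slide column as a block, beside 9.85%). In C+P against C (main 3) it ran from 1 (1.72%, normexp, beside 3.77%) to 6 (10.3%, array weights, beside 14.1%). In D+P against C+P (main 2) it ran from 0 (slide column, beside 6.48%) to 6 (10.3%, without C+P 1, beside 5.97%), in D+P against D (main 6) from 3 (7.14%, strict filter, beside 15.5%) to 10 (17.2%, without D 2, beside 14.7%), and for the interaction (main 4) from 1 (1.72%, normexp, beside 4.52%) to 5 (8.62%, array weights, beside 10.9%). With the mean over a gene's probes, 3 genes (8.82%) did not overlap in D+P against D, beside 16.8% of all genes. Counts of genes and values of genes outside the naming rule without an array, and the shares of all probes beside them, were chosen after seeing the data.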
